A study of Mus musculus with 4 samples.

Results

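The genes described are 10 transcription factors of hair germ activation and hair lineage commitment: Runx1, Runx3, Lef1, Msx1, Msx2, Dlx3, Foxn1, Hoxc13, Ovol1 and Gata3. They were taken by name, and all 10 were found among the 55536 genes of the deposited table, 24037 of which had a count. Their RNA was measured in mouse skin bulge cells collected at postnatal day 20. In the mice of the 2 knockout libraries (Cdh5CreERT2; Alk1 flox/flox), Alk1, the endothelial receptor gene also called Acvrl1, was deleted by a Cre under the endothelial Cdh5 promoter. The 2 control mice were littermates without Cre, and the sources used here do not say whether they carried floxed alleles. Every animal was of C57BL/6 background and had an intraperitoneal dose of tamoxifen, 100 µg per g of body weight, at postnatal day 17, so collection came 3 days after induction. Cre activity was directed at endothelium and not at the bulge cells that were sequenced.

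Adult hair follicles cycle between rest and growth. The bulge holds quiescent stem cells, and the hair germ beneath it holds cells primed to start the next growth phase. Signals of the WNT family push germ cells towards growth, BMP signals hold bulge cells at rest, and the transcription factors described here act as germ cells become activated or as their progeny take up hair shaft, inner root sheath or epidermal fates.

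The libraries held between 16326906 and 29130974 counts. All 10 bulge markers, among them Krt15, Cd34, Sox9, Lhx2 and Nfatc1, were present in every library. Their summed level was 77792 and 68937 CPM (counts scaled to library size) in knockouts 1 and 2, against 62804 and 72531 CPM in controls 1 and 2. Krt15, Krt5 and Krt14 made up most of that sum, at 36017, 31494 and 6879 CPM in knockout 1. Cd34, Sox9, Lhx2 and Nfatc1 stood there at 1806, 266, 368 and 277 CPM, so the sum mostly follows the keratins. Of the 10 markers, 5 had a log2 fold change above 0 and 5 below. Acvrl1 itself measured 17.9 and 23.1 CPM in knockouts and 21.6 and 24.3 CPM in controls (log2 fold change -0.16 ± 0.19 SE, edgeR adjusted p = 0.76). Since the deletion was endothelial and counts cover the whole gene, that value does not check the labels. In bulk RNA, fewer cells of a type and less RNA per cell cannot be told apart. Nothing in the labels says how the cells were isolated, and the p-values measure only the spread between these samples.

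The RefSeq promoter table (GRCm38.p6) held 12 transcription starts for 7 of the 10 genes. Dlx3, Hoxc13 and Ovol1 were not among them. The stretches shown are the 250 bases before the start, 5′ to 3′ on the gene's strand. Msx1 and Msx2 are shown because they were the only members whose knockout libraries both lay above both controls, Runx1 because 1 library stood apart and its counts pool a pair of promoters, and Gata3 because its level per length was the highest. Capitals mark matches, on either strand, to a GC-rich SMAD motif (GGCGCC), a RUNX motif (TGTGGT or TGCGGT), a homeobox motif (TAATTG or TAATTA) or a TCF/LEF motif (CTTTGAA or CTTTGAT).
Msx1, minus strand, chr5:37824586-37824835: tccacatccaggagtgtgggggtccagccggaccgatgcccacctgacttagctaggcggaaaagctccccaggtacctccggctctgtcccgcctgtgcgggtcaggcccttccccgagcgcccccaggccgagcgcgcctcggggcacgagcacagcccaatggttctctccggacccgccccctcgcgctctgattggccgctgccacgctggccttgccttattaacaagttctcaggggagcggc
Msx2, minus strand, chr13:53472781-53473030: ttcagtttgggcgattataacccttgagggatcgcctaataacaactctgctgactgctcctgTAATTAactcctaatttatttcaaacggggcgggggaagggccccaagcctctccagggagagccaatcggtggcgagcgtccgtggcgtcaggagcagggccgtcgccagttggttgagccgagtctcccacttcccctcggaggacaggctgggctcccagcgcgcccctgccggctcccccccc
Runx1 distal, minus strand, chr16:92826075-92826324: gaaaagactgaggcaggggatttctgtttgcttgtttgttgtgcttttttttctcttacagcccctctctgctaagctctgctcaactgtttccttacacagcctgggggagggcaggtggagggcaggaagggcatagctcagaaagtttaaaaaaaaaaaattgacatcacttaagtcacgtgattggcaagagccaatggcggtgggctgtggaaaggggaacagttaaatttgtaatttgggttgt
Runx1 proximal, minus strand, chr16:92697330-92697579: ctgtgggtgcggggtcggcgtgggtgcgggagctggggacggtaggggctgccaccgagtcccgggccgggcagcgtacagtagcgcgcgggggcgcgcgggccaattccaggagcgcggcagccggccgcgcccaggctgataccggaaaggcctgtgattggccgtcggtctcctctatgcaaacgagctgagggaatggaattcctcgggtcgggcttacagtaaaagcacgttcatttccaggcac
Gata3, minus strand, chr2:9878601-9878850: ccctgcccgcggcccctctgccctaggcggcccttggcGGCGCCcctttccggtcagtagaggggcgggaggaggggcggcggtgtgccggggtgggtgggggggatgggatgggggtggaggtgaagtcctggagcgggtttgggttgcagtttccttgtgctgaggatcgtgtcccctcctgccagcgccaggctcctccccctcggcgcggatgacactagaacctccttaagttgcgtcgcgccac

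The Msx2 stretch held 1 homeobox match, 187 bases before the start, and the Gata3 stretch held 1 GGCGCC match, 212 bases before it. No such letters stood in the Msx1 or Runx1 stretches. The first start of Lef1 also held 1 GGCGCC match, that of Foxn1 held 1 homeobox match, and the distal start of Runx3 held 2 RUNX matches, 134 and 126 bases before it. Among all 32851 stretches of this length, 9.59% held the SMAD motif, 18.6% the RUNX motif, 11.3% the homeobox motif and 7.48% the TCF/LEF motif. A match is a string of letters and not a measured site. The stretches differed in base composition: GC content was 68% before Msx1, 61.6% before Msx2 and 70% before Gata3, against a median of 52.4% over all stretches. The distal and proximal Runx1 stretches, 128745 bases apart, stood at 45.6% and 67.6% GC, with 2 and 27 CpG dinucleotides. The Gata3 start shown lies inside the annotated gene, which runs upstream to 9890034 and has 6 annotated transcripts. Gene-level counts do not show which start was used for Runx1 or Gata3.

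Levels can be compared between genes only per length, here as CPM per kb of annotated exon averaged over the 4 libraries. Gata3 stood first at 25.2 CPM per kb and Hoxc13 next at 22.3, above 86.8% and 85.2% of the 14259 genes tested. Dlx3 followed at 7.81, then Runx1 at 4.12 and, just under it, Ovol1, and Msx2 at 3.59 CPM per kb. Msx1 stood at 2.22 and Lef1 at 1.72 CPM per kb. Foxn1, at 0.734, and Runx3, at 0.196 CPM per kb, closed the order, and only 4.93% of tested genes were lower than Runx3. Ranges over the libraries overlapped between Gata3 and Hoxc13, between each neighbouring pair from Dlx3 to Msx2, and between Msx1 and Lef1, so those neighbours did not differ beyond their spread. They did not overlap between Hoxc13 and Dlx3, Msx2 and Msx1, Lef1 and Foxn1, or Foxn1 and Runx3. With the longest transcript in place of all exons, Runx1 stood above Dlx3, Msx2 above Ovol1, and Lef1 above Msx1.

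**Figure D1:**
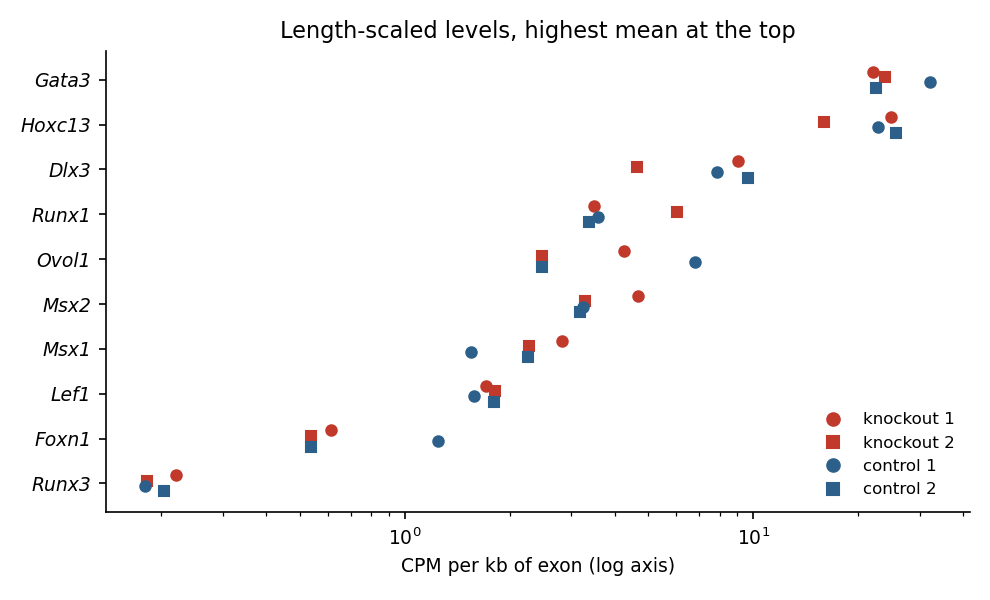
Length-scaled level of each transcription factor (CPM per kb of exon, log axis) in knockout 1, knockout 2, control 1 and control 2, ordered by the mean of the 4 libraries. Gata3 and Hoxc13 lie apart from the other 8 genes, and Runx3, at most 0.221 CPM per kb, is lowest in every library.

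Knockout and control libraries were then compared to ask whether loss of endothelial Alk1 changed these factors in bulge cells. All 10 passed the count filter and were tested, and 0 had an edgeR adjusted p under 0.05, where 1 of all 14259 genes (0.00701%) did. At an unadjusted p under 0.05 the members' count was also 0, against 10.7% of tested genes, and DESeq2 and limma-voom called none of the 10. Log2 fold changes were above 0 for 5 members and below 0 for 5, with a median of -0.10, against -0.02 over all tested genes. Both knockouts lay above both controls for 2 members, where 21.3% of tested genes did, and below both for none, where 23.6% did. With 2 libraries a group, an exact permutation test of a single gene cannot go below p = 0.333 (two-sided), so the spread pooled over genes carries these tests.

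**Figure D2:**
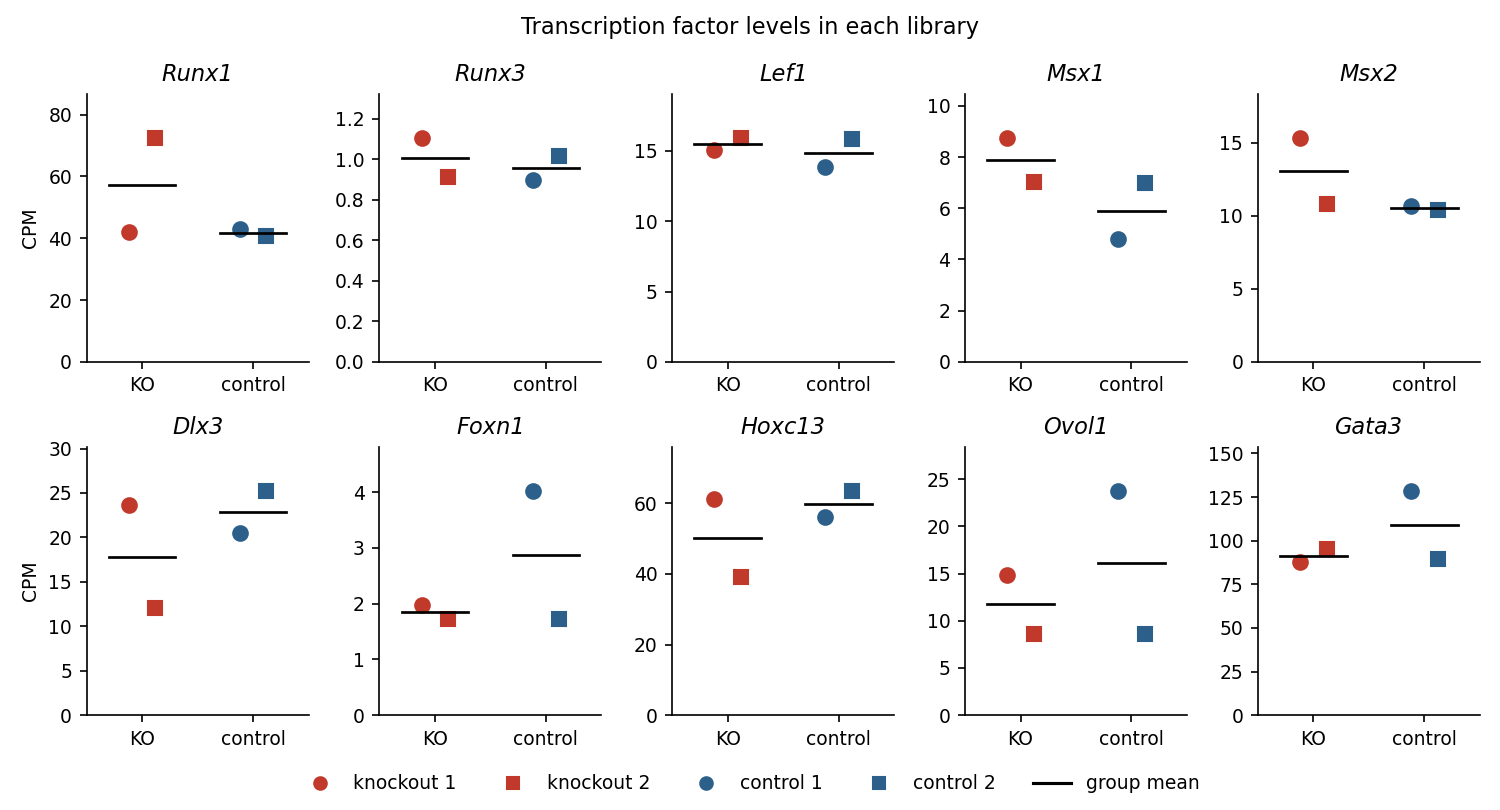
Level of each transcription factor in CPM, with knockouts at left and controls at right. Circles are library 1 and squares library 2 of each group, and lines are group means. Runx1 is high only in knockout 2, Dlx3 and Hoxc13 are low only in knockout 2, and Ovol1, Foxn1 and Gata3 are highest in control 1.

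Runx1, a RUNX factor that in mice promotes the entry of follicle stem cells into growth, lies on chromosome 16 (92601466 to 92826149, GRCm38). It measured 42.0 and 72.4 CPM in knockouts 1 and 2, against 43.0 and 40.6 CPM in controls 1 and 2. Knockout 2 was thus 1.72 times knockout 1, while knockout 1 lay between the controls. On the log2 scale knockouts were higher by 0.45 ± 0.25 (SE, edgeR adjusted p = 0.54), and the 95% interval ran from 0.889-fold to 2.10-fold. That value was 0.0058 (adjusted p = 0.99) when knockout 2 was left out and 0.79 (adjusted p = 0.053) when knockout 1 was. Only 12.1% of tested genes differed more between the knockouts. The gene closest in profile among those of the lists used here was Tcf7l1, a WNT pathway repressor of bulge cells, at 29.9 and 56.7 CPM in knockouts and 33.9 and 34.0 CPM in controls. Next was Cdh3, the hair germ cadherin, at 166 and 247 CPM in knockouts and 143 and 142 CPM in controls. The distance, between log2 profiles centred on their means over the 4 libraries, was 0.166 and 0.19. Blood cells also express Runx1. The 11 markers of Langerhans cells and macrophages summed to 102 and 121 CPM in knockouts, against 107 and 88.0 CPM in controls. Cd74, H2-Ab1 and H2-Aa made up most of that sum, at 31.3, 24.8 and 20.2 CPM in knockout 1. Cd68 measured 4.92 and 12.8 CPM in knockouts, against 3.95 and 3.69 CPM in controls. H2-Eb1 measured 8.60 and 20.4 CPM in knockouts, against 11.1 and 7.72 CPM in controls. Both were highest in knockout 2, while Cd207, H2-Ab1 and Tyrobp were highest in control 1 and H2-Aa and Fcer1g in knockout 1. None of the 11 markers was at 0 in any library, and their part in the result was not tested.

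Cbfb, the DNA-binding partner that RUNX proteins share, measured 111 and 118 CPM in knockouts and 111 and 106 CPM in controls (log2 fold change 0.08 ± 0.11, edgeR adjusted p = 0.82). Its libraries lay close together, and knockout 2 was highest by little.

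Runx3, a RUNX factor of T cells, Langerhans cells and skin epithelium (chromosome 4, 135120652 to 135177990), was low. It had 24 and 19 counts in knockouts and 15 and 30 counts in controls, or 1.10 and 0.910 CPM against 0.898 and 1.02 CPM. The groups overlapped, and the interval of the difference, 0.512-fold to 2.14-fold, allows a change of either direction. Per length, the 12 T cell markers averaged between 0.0128 CPM per kb (Trac) and 15.1 CPM per kb (Trbc2), beside 0.196 CPM per kb of Runx3. These markers summed to 46.7 and 35.1 CPM in knockouts and 35.9 and 34.7 CPM in controls, 4 of them averaging under 1 CPM. Thy1 and Trbc2 were the largest parts of that sum in every library. Trac, a T cell receptor gene, had 1 count in all. Trdc, another such gene, had 72 and 70 counts in knockouts and 47 and 80 in controls. The part of T cells in the Runx3 level was not tested.

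Lef1, the factor through which beta-catenin switches on WNT target genes (chromosome 3, 131110471 to 131224356), was the steadiest of the 10. It measured 15.0 and 15.9 CPM in knockouts, against 13.8 and 15.9 CPM in controls. All libraries lay within a narrow band, and the interval of the difference ran from 0.770-fold to 1.41-fold (log2 fold change 0.06 ± 0.18, edgeR adjusted p = 0.92). After removal of a trend with gene length and GC content the value was 0.21 (adjusted p = 0.73). Hoxc8 and Ctnnb1, the gene of beta-catenin, came closest in profile, at distances of 0.102 and 0.105. Profiles were not scaled by their spread, so a steady gene lies near other steady genes. Ctnnb1 measured 1287 and 1364 CPM in knockouts and 1137 and 1243 CPM in controls (log2 fold change 0.15 ± 0.12, adjusted p = 0.66). An antisense gene, Gm43352, overlaps 13.7% of the Lef1 exons and had 11, 2, 5 and 5 counts in knockout 1, knockout 2, control 1 and control 2, beside Lef1 counts of 327, 332, 231 and 468.

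Other TCF genes were named after their values were seen. Tcf7, a relative of Lef1 also used by T cells, measured 12.8 and 15.1 CPM in knockouts, against 7.78 and 9.25 CPM in controls. Both knockouts lay above both controls, and the difference was 0.71 ± 0.21 on the log2 scale (edgeR adjusted p = 0.43). Tcf7l2 measured 32.0 and 32.4 CPM in knockouts, against 37.9 and 44.2 CPM in controls (log2 fold change -0.35 ± 0.14, adjusted p = 0.46). Neither passed the threshold.

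Msx1 and Msx2 are homeobox repressors that respond to BMP signals in many tissues, and Msx2 is needed in mice for hair shaft differentiation. Msx1 (chromosome 5, 37820485 to 37824583) measured 8.73 and 7.04 CPM in knockouts, against 4.79 and 6.98 CPM in controls. The groups did not overlap, but knockout 2 and control 2 were almost level. Its log2 fold change was 0.41 ± 0.29 (edgeR adjusted p = 0.62; interval 0.820-fold to 2.17-fold), and without control 1, the lowest library, it was 0.18 (adjusted p = 0.98).

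Msx2 (chromosome 13, 53466884 to 53473074) measured 15.3 and 10.8 CPM in knockouts, against 10.7 and 10.4 CPM in controls. Here knockout 1 alone stood above the other libraries, and knockout 2 exceeded control 1 by little. Its log2 fold change was 0.31 ± 0.24 (edgeR adjusted p = 0.645; interval 0.834-fold to 1.84-fold). With knockout 1 left out it was 0.032 (adjusted p = 0.946), and with knockout 2 left out 0.54 (adjusted p = 0.33). The closest profile was that of Krt6a, an inner bulge keratin, with 1238 and 717 CPM in knockouts and 703 and 739 CPM in controls (distance 0.238). Wnt10a, a WNT ligand of the germ, followed at 0.28. For Msx1 the nearest were Dct, of melanocytes, at 0.285 and Id2, a BMP target, at 0.307. Inner bulge and upper follicle markers as a whole summed to 2292 and 2048 CPM in knockouts, against 1628 and 1469 CPM in controls. The list did not share the Msx2 pattern as a whole. Krt6a, Krt75 and Krt16 were higher in knockout 1 than in knockout 2, while Krt17, Krt79 and Fgf18 were lower. Krt17 measured 720 and 845 CPM in knockouts, against 555 and 483 CPM in controls. None of the 6 was at 0, and their part in the Msx2 level was not tested.

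Dlx3 and Hoxc13 are homeobox factors of the hair matrix: in mice, Dlx3 is needed for hair formation and Hoxc13 controls hair keratin genes. Dlx3 (chromosome 11, 95120119 to 95125296) measured 23.6 and 12.1 CPM in knockouts, against 20.5 and 25.2 CPM in controls. Knockout 2 was 0.511 times knockout 1, which lay between the controls. Dlx3 had a log2 fold change of -0.36 ± 0.32 (edgeR adjusted p = 0.69; interval 0.453-fold to 1.34-fold). Leaving out knockout 2 gave 0.046 (adjusted p = 0.947), and leaving out knockout 1 gave -0.93 (adjusted p = 0.0985).

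Hoxc13 (chromosome 15, 102921103 to 102928814) measured 61.1 and 39.3 CPM in knockouts, against 56.1 and 63.4 CPM in controls. Its libraries stood in the same order as those of Dlx3, with knockout 2 lowest and control 2 highest. The difference was -0.25 ± 0.22 on the log2 scale (edgeR adjusted p = 0.69; interval 0.578-fold to 1.22-fold). Leaving out knockout 2 gave 0.032 (adjusted p = 0.946), and leaving out knockout 1 gave -0.61 (adjusted p = 0.0983). Hoxc13 was the closest profile to Dlx3 (distance 0.284), and Thy1, of the T cell list, was next (0.312). The closest to Hoxc13 itself was Cd34, a bulge surface marker, at 1806 and 1328 CPM in knockouts and 1585 and 1949 CPM in controls (distance 0.192). Bmp2 followed at 0.247.

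Foxn1, the factor mutated in nude mice and needed for hair shaft keratinization (chromosome 11, 78357577 to 78386558), was low. It had 43 and 36 counts in knockouts and 67 and 51 counts in controls, or 1.98 and 1.72 CPM against 4.01 and 1.73 CPM. Control 1 alone stood out, and control 2 was level with knockout 2. Its log2 fold change was -0.61 ± 0.48 (edgeR adjusted p = 0.66; interval 0.292-fold to 1.48-fold), and without control 1 it was 0.10 (adjusted p = 0.99).

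Genes of the hair shaft, many of them downstream of Foxn1 and Hoxc13, were mostly close to undetected. Of 20 listed, 19 were analysed, 13 had a count in some library and 5 passed the count filter: Krt31, Krt32, Krt33a, Selenbp1 and S100a3. None of the 5 passed the test, and their median log2 fold change was -0.16. Krt32, a hair keratin, measured 22.8 and 19.1 CPM in knockouts and 22.9 and 18.4 CPM in controls, and Selenbp1 measured 18.8 and 23.5 CPM in knockouts and 23.2 and 22.7 CPM in controls. Krt81 and Padi3 had 0 counts in every library, which allows up to 0.138 and 0.144 CPM in knockouts and 0.18 and 0.102 CPM in controls, from 3 counts a library. That limit covers counting error only.

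Ovol1, a zinc finger repressor of transcription acting in epidermal and hair differentiation (chromosome 19, 5549136 to 5560646), spread more within groups than between them. It measured 14.8 and 8.62 CPM in knockouts, against 23.7 and 8.64 CPM in controls. Library 1 was the higher of each group, and library 2 was level across the groups. Only 2.41% of tested genes differed more between the controls. Ovol1 had a log2 fold change of -0.45 ± 0.50 (edgeR adjusted p = 0.75; interval 0.315-fold to 1.70-fold). It was 0.44 without control 1 (adjusted p = 0.98) and -0.99 without control 2 (adjusted p = 0.95). An antisense pseudogene, Gm31166, overlaps 19.8% of its exons and had 12 and 26 counts in knockouts and 5 and 13 counts in controls, beside 323 and 180 counts of Ovol1 in knockouts and 396 and 255 in controls.

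The order of the libraries for Ovol1 was that of differentiated interfollicular keratinocytes. The 8 markers of those cells summed to 10640 and 4778 CPM in knockouts, against 16511 and 5353 CPM in controls, and none was at 0 in any library. The closest profiles to Ovol1 were those of Krtdap, a marker of differentiating keratinocytes, with 251 and 137 CPM in knockouts and 396 and 131 CPM in controls (distance 0.135), and of Dsc1, a desmosomal cadherin of upper epidermis and inner root sheath, with 75.0 and 44.7 CPM in knockouts and 111 and 39.0 CPM in controls (distance 0.162). Sebaceous gland markers also peaked in control 1, with sums of 513 and 358 CPM in knockouts and 841 and 465 CPM in controls. The part of these cells in the levels of Ovol1, Foxn1 and Gata3, all highest in control 1, was not tested. Ovol2, the paralog, chosen with its values known, stood in another order: 19.9 and 24.4 CPM in knockouts, against 17.8 and 14.4 CPM in controls (log2 fold change 0.46 ± 0.20, edgeR adjusted p = 0.47).

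Gata3, a zinc finger factor that specifies the inner root sheath and is also used by T cells (chromosome 2, 9857078 to 9890034), measured 87.7 and 95.2 CPM in knockouts, against 128 and 89.3 CPM in controls. Control 1 was the high library, and control 2 lay between the knockouts. Gata3 had a log2 fold change of -0.25 ± 0.19 (edgeR adjusted p = 0.64; interval 0.614-fold to 1.15-fold), and without control 1 it was 0.034 (adjusted p = 0.99). Its closest profiles were Myc, a growth regulator, at a distance of 0.176 and Cux1, an inner root sheath factor, at 0.221. Trbc2, the T cell marker of the highest level per length, averaged 15.2 ± 2.58 CPM per kb in knockouts and 15.0 ± 1.48 CPM per kb in controls (SD, n = 2 each). Gata3 averaged 23.0 ± 1.33 CPM per kb in knockouts and 27.3 ± 6.91 CPM per kb in controls. Of the 12 T cell markers, 10 were tested and 0 were called. The log2 fold change was above 0 for 8 and below 0 for 2, with a median of 0.20. Both knockouts lay above both controls for 5 of the 10 and below both for 0. Over all tested genes those shares were 21.3% and 23.6%. The part of T cells in the Gata3 level was not tested.

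Other inner root sheath genes were scarcer. Of 14 listed, 7 passed the count filter, 0 were called, and the median log2 fold change was -0.32, with 1 above 0 and 6 below. Cux1 measured 22.5 and 21.3 CPM in knockouts, against 30.9 and 18.7 CPM in controls. Like Cux1, Tgm1, Tgm3, Dsc1 and Krt28 were highest in control 1. Tchh was highest in knockout 2, with 8.46 and 13.6 CPM in knockouts and 11.7 and 11.5 CPM in controls. The tested keratins differed from each other: Krt71 stood at 0.69, with both knockouts above both controls, and Krt28 at -0.35. Among keratins too low to test, Krt27 had 10 and 17 counts in knockouts and 2 and 2 in controls. Krt73 had 5 and 42 against 0 and 3, and Krt25 had 7 and 3 against 0 and 1. Krt26, Krt72 and Krt74 had at most 2 counts in any library. Padi1, also too low to test, had 0 and 2 counts in knockouts and 7 and 5 in controls. Without control 1 the list's median was 0.44.

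**Figure D3:**
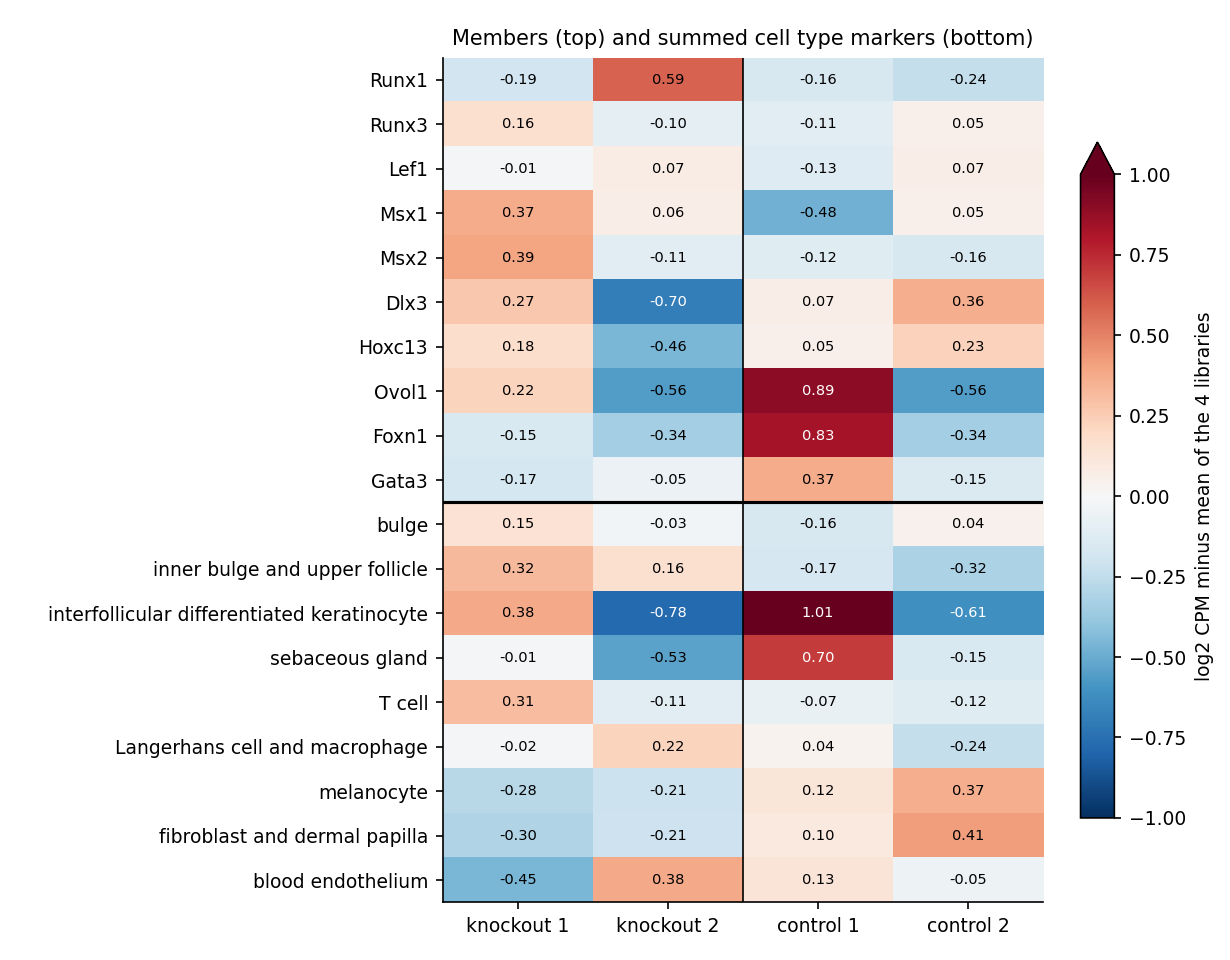
Log2 CPM minus the mean of the 4 libraries for each transcription factor (top) and for the summed level of each cell type marker list (bottom), with knockout libraries at left. Red is higher and blue lower, and the scale ends at 1. Ovol1 and differentiated keratinocyte markers are both highest in control 1 (0.89 and 1.01) and lowest in knockout 2 (-0.56 and -0.78).

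No library was high or low for the members as a set. Knockout 1 held the highest value of 3 members and the lowest of 1, and knockout 2 the highest of 2 and the lowest of 4. Control 1 held the highest of 3 and the lowest of 3, and control 2 the highest of 2 and the lowest of 2. The 4 members lowest in knockout 2 were Dlx3, Hoxc13, Foxn1 and Ovol1, although for Foxn1 and Ovol1 control 2 was all but equal. For 8 of the 10 members, at least 1 fit with a library left out gave a log2 fold change within 0.1 of 0. The exceptions were Msx1 and Ovol1. Of the 8, Runx3 and Lef1 stood within that bound already with all 4 libraries, at 0.066 and 0.058. The direction held in all 4 fits with a library left out for 3 members, namely Runx1, Msx1 and Msx2. Over all tested genes the median gap between libraries of a group was 0.26 in knockouts and 0.16 in controls on the log2 scale.

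**Figure D4:**
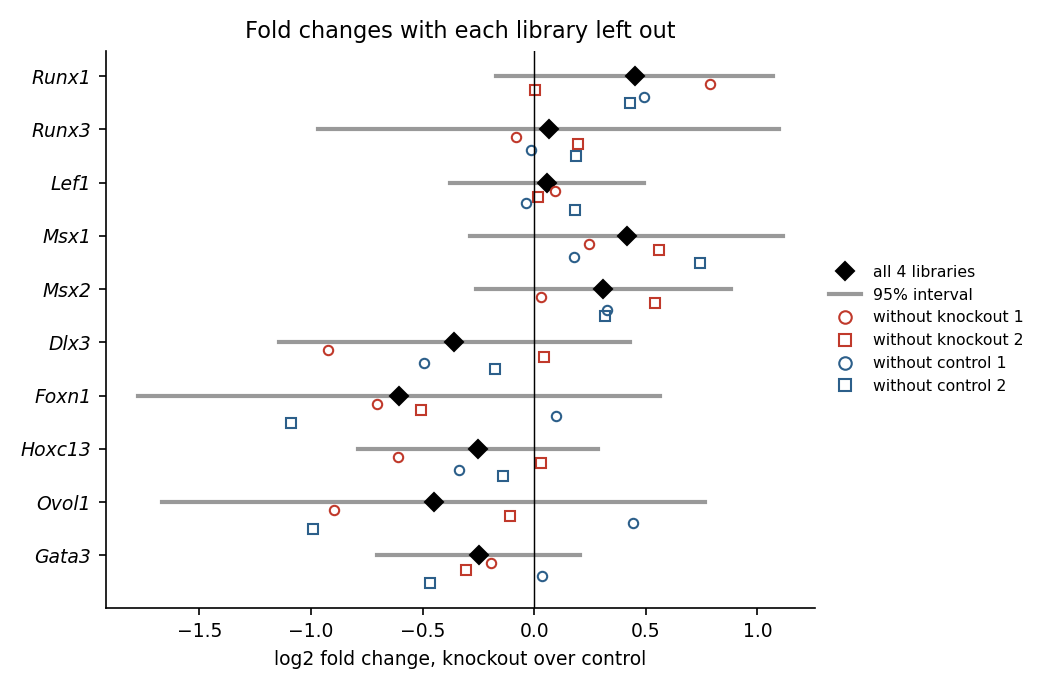
Log2 fold change, knockout over control, of each transcription factor. Black diamonds are the fit to all 4 libraries with its 95% interval in grey, and open symbols are the fits with 1 library left out. Every interval crosses 0, and for Runx1, Dlx3 and Hoxc13 the fit without knockout 2 lies at or near 0.

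Partners, cofactors and paralogs of these factors gave no call either. Of 28 listed, 21 were tested, 12 had a log2 fold change above 0 and 9 below, and the median was 0.08. Transcription factors of bulge identity, 16 of 16 tested, had 6 above 0 and 10 below and a median of -0.13. Nfix, a bulge factor of the nuclear factor I family, measured 533 and 678 CPM in knockouts, against 675 and 753 CPM in controls (log2 fold change -0.24 ± 0.16, edgeR adjusted p = 0.60). Its relative Nfib measured 559 and 600 CPM in knockouts, against 718 and 744 CPM in controls, so that the groups did not overlap (-0.34 ± 0.12, adjusted p = 0.43).

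Signals and markers of the germ and matrix had 16 of 20 genes tested, 5 above 0 and 11 below, a median of -0.12 and 0 calls. Cdh3, given above, was higher in both knockouts than in both controls (log2 fold change 0.53 ± 0.20, edgeR adjusted p = 0.44). Lgr5, a receptor of follicle stem cells, measured 322 and 411 CPM in knockouts, against 380 and 420 CPM in controls (-0.13 ± 0.16, adjusted p = 0.77). Shh, the growth signal of activated germs, had 1 count in all libraries together. Genes that Ovol1 or Dlx3 act on in epidermis had 13 of 15 tested, 4 above 0 and 9 below, a median of -0.13 and 0 calls. Lor, a cornified envelope gene, measured 685 and 257 CPM in knockouts, against 1285 and 320 CPM in controls, in the same order of libraries as Ovol1. Id2 measured 386 and 385 CPM in knockouts, against 286 and 357 CPM in controls (0.26 ± 0.15, adjusted p = 0.54).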

How the data were processed

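Raw counts per gene were deposited for 4 directional, polyA-selected libraries, per the labels' protocols. Per the submitters' processing notes, Trim Galore 0.6.0, cutadapt, FastQC, STAR 2.7.0e, DESeq2 1.26.0 and GRCm38 (mm10) were used. How reads were assigned to genes, on which strand and with which annotation, is not stated in these sources, so antisense overlaps are uncertain. All identifiers matched GENCODE M21, which gave symbols, coordinates and exon lengths.

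With R 4.3.3 and edgeR 4.0.16, 14259 genes passed filterByExpr. After TMM normalization, groups were compared by the quasi-likelihood test (robust, no covariates) with Benjamini-Hochberg adjustment over all tested genes and a threshold of 0.05. CPM use effective library sizes. SE is the log2 fold change over the root of F, and profiles use log2 CPM with a prior count of 2. Alternatives were RLE and upper-quartile scaling, 2 count filters, DESeq2 1.42.0, limma-voom (limma 3.58.1), the replicate number as a block, removal of a length and GC trend (splines, 4 degrees of freedom), and each library left out.

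Members, lists and tests were chosen with earlier results of these data known, and motifs after seeing the values. All 10 members were named. From each other list the 2 genes of highest mean CPM were named, since none passed, and for each member of at least 5 CPM the 2 nearest of 101 listed genes. Genes outside this rule were chosen after their values were seen. Replicates were not duplicates (chi-square per degree of freedom 41.9 between knockouts and 31.6 between controls).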

Additional observations from a re-analysis of the deposited data

How the results depend on the processing

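None of the 10 factors passed the threshold in any of the 13 alternative fits, where the lowest adjusted p was 0.053 (Runx1 without knockout 1). Over all genes, 1 call became 430 without a count filter, 80 with DESeq2, 106 with the replicate block, 2 after a length and GC trend was removed and 63 with both, and 1 to 65 with a library left out; the cause was not tested. The labels give no pairing, and deviations of same-numbered libraries correlated at 0.12 across genes. Leaving out a library turned the direction of 7 members. Those values ran from -0.083 to 0.20 for Runx3 (below 0 also without control 1, at -0.013), -0.036 to 0.18 for Lef1, -0.93 to 0.046 for Dlx3, -1.09 to 0.10 for Foxn1, -0.61 to 0.032 for Hoxc13, -0.99 to 0.44 for Ovol1 and -0.46 to 0.034 for Gata3. Removing the length and GC trend moved Lef1 to 0.21 (0.22 with the block), above its range just given, Runx3 to 0.14 and Runx1 to 0.65 (0.60 with the block). For Runx1 the edgeR adjusted p was then 0.54 (0.29 with the block), and the unadjusted p was 0.037 (0.0082 with the block). Without a count filter the edgeR unadjusted p of Runx1 was 0.0061 and the adjusted p 0.18. The members' median was -0.26 with at least 50 counts in 2 libraries, a filter that drops Runx3 and leaves 9 members, and -0.14 to 0.067 with a library left out. Such ranges were -0.18 to 0.12 for partners and paralogs, -0.29 to -0.061 for bulge identity factors, -0.34 to 0.035 for germ and matrix signals, -0.29 to -0.11 for shaft genes, -0.47 to 0.44 for inner root sheath genes and -0.54 to 0.48 for Ovol1 and Dlx3 targets. With the longest transcript, 4 of 10 members kept their place in the order of levels. With 2 libraries a group, folds inside the intervals given cannot be told from none, and Runx3 and Foxn1 rest on under 70 counts a library.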
